A study of Mus musculus with 12 samples.

Results

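Atp6v0c, Rps18, Rps2, Glo1 and Rnps1 are protein-coding genes on mouse chromosome 17, and near-identical copies of them lie on other chromosomes. Of these copies 5, namely Atp6v0c-ps2 (of Atp6v0c), Gm11361 and Gm10260 (of Rps18), Rps2-ps10 (of Rps2) and Gm13443 (of Glo1), were examined with their parents, which made 10 genes of 54532 in the count table and 10 of the 17307 that were tested. The 10 genes were chosen by measured values, the CPM (counts scaled to library total) of parent against copy over the 12 libraries, so that pattern is described here without a test. The tests concern Hras genotype and sex, which the choice did not use. RNA came from the frontal cortex of 12 mice aged 9 months, each a library of its own. Of these, 6 mice carried the APP/PS1 transgenes, a model of amyloid deposition, and 6 carried the same transgenes and were knocked out for Hras (APP/PS1/Hras-/-), with 3 males and 3 females of each genotype. All 12 mice thus carried APP/PS1, and no mouse without the transgenes was analysed here. For the transgene promoters, the strain background and the litters, the sources used here give nothing.

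A processed pseudogene, or retrocopy, arises when an mRNA is reverse transcribed and inserted elsewhere in the genome, so it lacks the introns of its parent and usually its promoter. Genes of abundant housekeeping mRNAs, above all those of ribosomal proteins, have many such copies in mammals, and a read from a shared stretch aligns to parent and copy equally well. Atp6v0c encodes the c subunit that forms the proton-carrying ring of the vacuolar ATPase (V-ATPase), which acidifies lysosomes and synaptic vesicles. Rps18 and Rps2 encode proteins of the small (40S) ribosomal subunit. Glo1 encodes glyoxalase I, which removes methylglyoxal, a reactive by-product of glycolysis, and Rnps1 encodes an RNA-binding protein of the splicing machinery that joins the exon junction complex.

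Total counts per library ran from 13984692 to 20174131. The knocked-out gene Hras stood at 73.7 to 102 CPM in the 6 APP/PS1 libraries and at 19.4 to 23.4 CPM in the 6 APP/PS1/Hras-/- libraries, so no library went against its label. Summed markers of inhibitory neurons (Gad1, Gad2 and Slc32a1) ran from 494 to 637 CPM, those of astrocytes from 691 to 1504 CPM, oligodendrocytes 2508 to 5606 CPM and microglia 122 to 219.9 CPM, so neuronal and glial markers were present in every library. Markers of neighbouring tissue varied more. Choroid plexus genes summed to 9.98 to 3026 CPM, striatal genes to 70.0 to 289 CPM, meningeal genes to 33.8 to 86.2 CPM and blood genes to 0.783 to 6.60 CPM. None of these lists had a gene at 0 in all 12 libraries.

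The sequences below show how little separates parent and copy, and where the few distinguishing bases lie. They are stretches of coding sequence from GENCODE M21 transcripts (GRCm38), 5′ to 3′ on the strand of the gene. Capitals mark each position at which any sequence of the set differs from the others, and positions are counted from 1 at the first base of the parent's coding sequence. Atp6v0c-ps2 differs from the 465 coding bases of Atp6v0c at 1 base, T111C, within bases 81 to 140 shown here. Atp6v0c-ps1, a second annotated copy that had 0 counts in every library, carries the same base at that position and 13 differences in all.
Atp6v0c: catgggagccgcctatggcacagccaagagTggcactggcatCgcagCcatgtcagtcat
Atp6v0c-ps2: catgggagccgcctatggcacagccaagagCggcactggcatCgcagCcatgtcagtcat
Atp6v0c-ps1: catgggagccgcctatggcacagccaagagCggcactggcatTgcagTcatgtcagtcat

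Gm11361 differs from the 456 coding bases of Rps18 at 3 positions (T11A, A171C and A337C) and Gm10260 at 4 (T186C, A337C, G371A and G431A). Both are annotated as single-exon protein-coding genes, unlike the other copies, which are annotated as pseudogenes. At base 337 none of the 13 annotated copies carried the base of Rps18: 11 had C and the other 2, Rps18-ps1 and Gm5321, had T. Bases 308 to 367, around that position, are shown for Rps18, both listed copies, Rps18-ps3 and Rps18-ps1, the last 2 chosen after their values were seen.
Rps18: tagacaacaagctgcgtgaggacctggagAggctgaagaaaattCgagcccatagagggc
Gm11361: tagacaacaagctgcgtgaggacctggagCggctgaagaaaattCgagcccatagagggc
Gm10260: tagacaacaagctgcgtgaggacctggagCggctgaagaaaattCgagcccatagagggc
Rps18-ps3: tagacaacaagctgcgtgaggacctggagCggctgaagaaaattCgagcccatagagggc
Rps18-ps1: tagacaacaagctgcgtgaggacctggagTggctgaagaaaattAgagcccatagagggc
Over this stretch Gm11361, Gm10260 and Rps18-ps3 are identical to each other, so it separates the parent from the copies but not the copies from one another. Bases 161 to 200 do separate them, since A171C belongs to Gm11361, T186C to Gm10260 and G181C to Rps18-ps3.
Rps18: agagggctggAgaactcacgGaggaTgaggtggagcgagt
Gm11361: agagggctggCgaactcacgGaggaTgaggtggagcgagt
Gm10260: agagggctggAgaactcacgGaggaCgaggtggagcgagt
Rps18-ps3: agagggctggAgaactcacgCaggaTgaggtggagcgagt

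Gm13443 differs from the 552 coding bases of Glo1 at 3 positions (G9A, T75C and T225C), and bases 201 to 250 hold the last of them.
Glo1: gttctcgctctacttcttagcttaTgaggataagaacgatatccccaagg
Gm13443: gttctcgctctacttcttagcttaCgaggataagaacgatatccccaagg
Rnps1 had no copy among the 10 genes. A search of all annotated pseudogenes found 1 copy of it, Gm9825 on chromosome 6, which covers 843 of the 915 coding bases with 5 differences (C243A, C332T, T561C, T582C and C756T). Bases 551 to 600 hold 2 of these.
Rnps1: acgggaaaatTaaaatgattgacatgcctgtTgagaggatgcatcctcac
Gm9825: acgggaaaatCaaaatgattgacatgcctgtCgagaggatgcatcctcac
Rps2 has more annotated copies than the other 4 parents. The bases of Rps2-ps10 and Gm7502 were not used here. Of the other copies, 44 of the 46 that align at base 204 of the coding sequence share the change T204C, and 39 of the 41 that align at base 60 share T60A. Bases 181 to 230 are shown with the copies Rps2-ps13 and Gm6311, whose counts are described with those of Rps2.
Rps2: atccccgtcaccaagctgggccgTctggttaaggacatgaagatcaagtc
Rps2-ps13: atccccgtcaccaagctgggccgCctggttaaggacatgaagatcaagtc
Gm6311: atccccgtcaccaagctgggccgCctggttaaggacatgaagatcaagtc

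In all, 71 annotated genes met the search rule for a copy of 1 of the 5 parents (at least 90% identity over at least 60% of the coding sequence or of the copy). There were 54 for Rps2, 13 for Rps18, 2 for Atp6v0c and 1 each for Glo1 and Rnps1. Of these, 70 were in the count table, 49 had at least 1 count and 6 reached a mean of 1 CPM. The 6 were the 5 listed copies and Gm9825. The noncoding gene Gm26619, which carries the sequence of Gm10260 on the opposite strand, was not counted as a copy. The map of differences along Rps18 shows the 13 copies in order: the 2 listed copies and Rps18-ps3 have 3 or 4 differences each, and the other 10 copies have 8 to 39. At least 1 count was present for 8 of the 13.

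**Figure D1:**
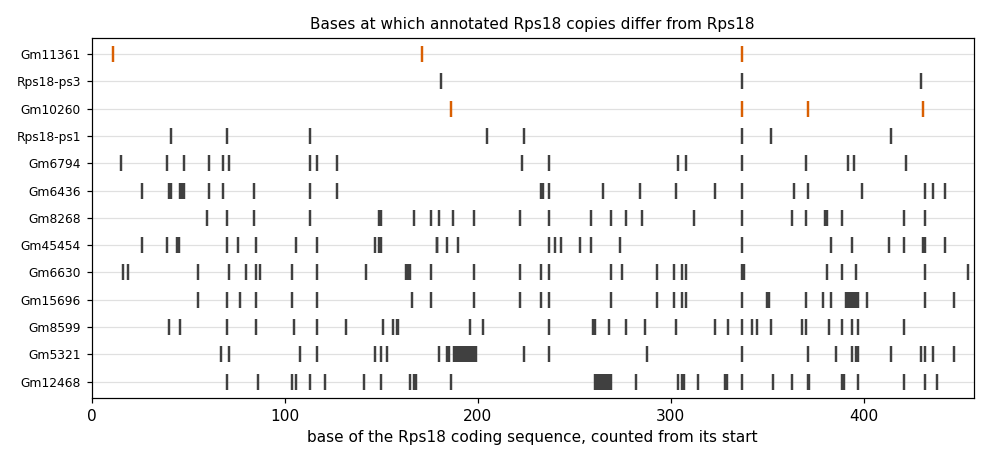
Positions at which each of the 13 annotated Rps18 copies differs from the Rps18 coding sequence (x axis, base counted from the start; 1 row per copy, ordered by the number of differences; a tick is 1 differing base or gap). Gm11361 and Gm10260 are in orange. Every row has a tick at base 337.

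For each listed copy the 12 libraries fell into 6 with high counts and 6 with few or none, and it was the same 6 libraries each time. The high libraries were APP/PS1 male 1, APP/PS1 females 1 and 3, APP/PS1/Hras-/- males 1 and 2 and APP/PS1/Hras-/- female 3. They comprised 3 of each genotype and 3 of each sex. Their RNA integrity numbers (RIN) were 7.8 to 8.7, against 8.2 to 8.7 in the others, and their total counts 16966339 to 20174131 against 13984692 to 19385509, so both measures overlapped. The summed markers of every cell type and tissue named above also overlapped between both sets of libraries. The choroid plexus sum, for example, was 9.98 to 522 CPM in the high libraries and 35.1 to 3026 CPM in the others. These 2 sets were seen in the values and are not groups of the study, so no test was made between them.

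**Figure D2:**
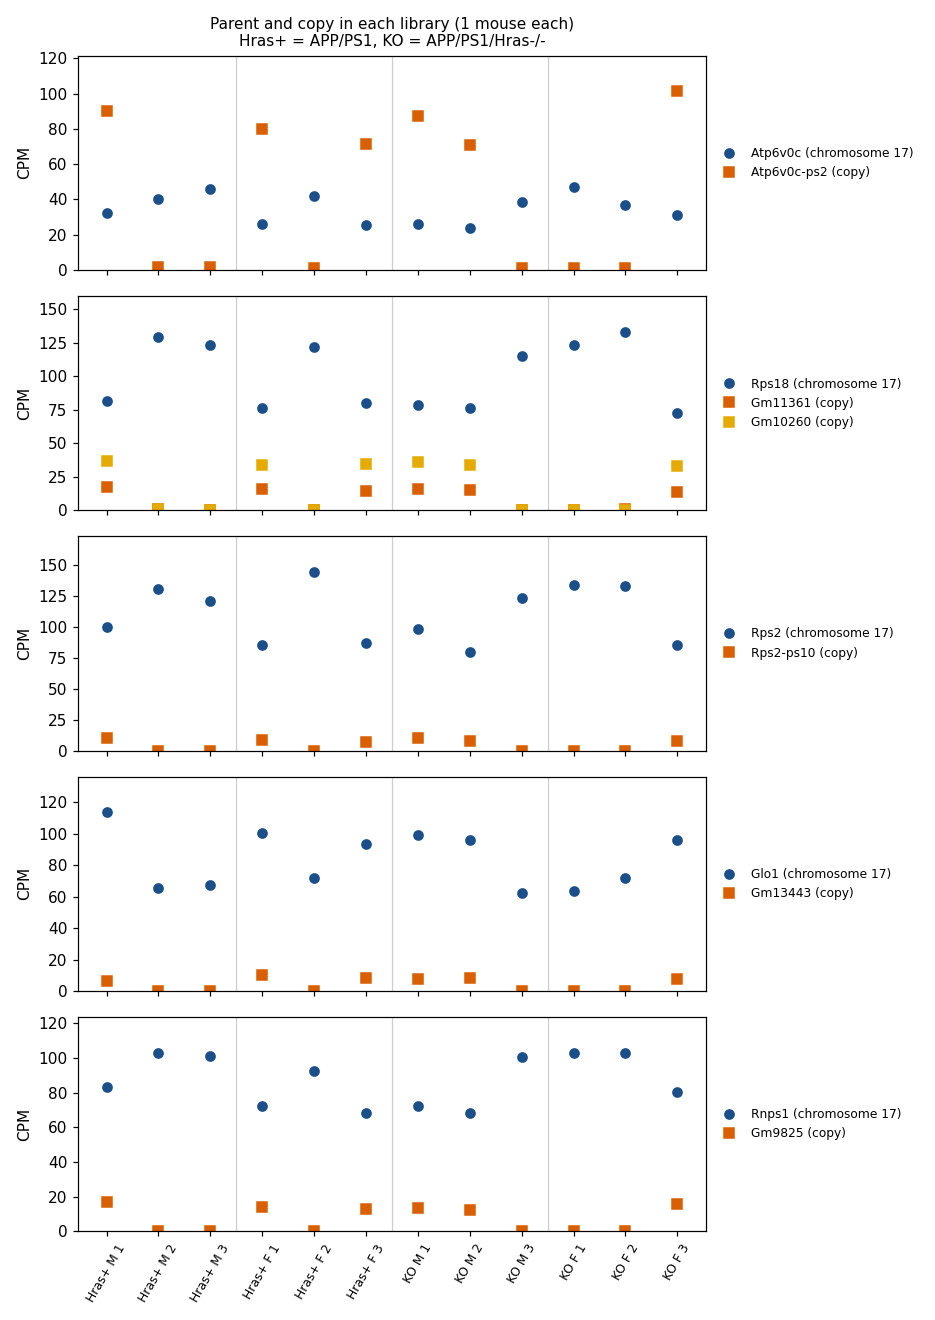
CPM of each parent (blue circles) and its copies (orange or yellow squares) in each of the 12 libraries (x axis; M male, F female, Hras+ for APP/PS1, KO for APP/PS1/Hras-/-); each panel has its own linear y axis from 0. The same 6 libraries hold the copies at 6.54 to 101 CPM, and the parent is low in them for Atp6v0c, Rps18, Rps2 and Rnps1 but high for Glo1.

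Atp6v0c-ps2 (ENSMUSG00000080242, GRCm38 chr6:37806086-37806550, plus strand, 1 exon) had the highest CPM among the copies. It stood at 90.4, 1.55 and 1.51 CPM in APP/PS1 males 1 to 3, at 79.8, 1.21 and 71.7 CPM in APP/PS1 females 1 to 3, at 87.3, 71.0 and 1.182 CPM in APP/PS1/Hras-/- males 1 to 3, and at 1.17, 0.997 and 101 CPM in APP/PS1/Hras-/- females 1 to 3. The values formed 2 separate ranges in every group, with nothing between 1.55 and 71.0 CPM. The highest library was 102 times the lowest.

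The parent Atp6v0c (ENSMUSG00000024121, chr17:24163866-24169702, minus strand) stood at 32.5, 40.5 and 45.9 CPM in APP/PS1 males, 25.9, 41.7 and 25.5 CPM in APP/PS1 females, 26.2, 24.03 and 38.7 CPM in APP/PS1/Hras-/- males and 47.0, 36.7 and 31.2 CPM in APP/PS1/Hras-/- females, in the same order of mice. The 6 libraries in which the copy was high had the 6 lowest values of the parent, 24.03 to 32.5 CPM, against 36.7 to 47.0 CPM. The parent differed far less between these libraries than the copy did. The sum of both was 37.7 to 48.2 CPM in 6 libraries and 95.03 to 132 CPM in the 6 in which the copy was high. Across all 12 libraries the coefficient of variation (CV, SD over mean) was 23.7% for Atp6v0c and 48.1% for the sum.

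Counts per kilobase of annotated exon allow levels of different genes to be set side by side. On that scale Atp6v0c-ps2 reached 153 to 218 CPM per kb in its 6 high libraries, and Atp6v0c 7.10 to 9.59 CPM per kb in the same libraries. The annotated copy is as long as the coding sequence alone, whereas the exons of Atp6v0c amount to 3384 bases with untranslated parts, so the scale favours the copy. As a share of parent plus copy counts, Atp6v0c-ps2 made up 73.6% (95% Wilson interval 71.6 to 75.4) to 76.9% (75.0 to 78.7) in the high libraries. In the other 6 it made up 2.43% (1.54 to 3.80) to 3.69% (2.60 to 5.23). Intervals cover counting error only. Of all stretches of 150 bases in the Atp6v0c coding sequence, 64.9% are identical in Atp6v0c-ps2, the largest share among the copies with a mean of at least 1 CPM. The length of 150 bases was taken from the description of the series design. How reads that fit several places were counted is not given in the sources used here.

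Rps18 (ENSMUSG00000008668, chr17:33951999-33956001, minus strand) stood at 81.5, 129 and 123 CPM in APP/PS1 males, 76.2, 122 and 80.4 CPM in APP/PS1 females, 78.8, 76.3 and 115 CPM in APP/PS1/Hras-/- males and 123, 133 and 72.4 CPM in APP/PS1/Hras-/- females. Gm10260 (ENSMUSG00000069117, chr13:97760072-97760632, minus strand) stood at 37.0, 0.829 and 0.688 CPM, 33.6, 0.288 and 34.9 CPM, 36.0, 33.6 and 0.187 CPM, and 0.584, 0.142 and 33.3 CPM in the same order. Gm11361 (ENSMUSG00000113061, chr13:28257528-28258134, plus strand) stood at 17.4, 0.725 and 0.688 CPM, 16.0, 0.518 and 14.7 CPM, 15.6, 14.9 and 0.684 CPM, and 0.519, 1.07 and 13.5 CPM. Where the copies were high Rps18 was low, and the ranges of the parent, 72.4 to 81.5 and 115 to 133 CPM, did not overlap between the 2 sets of libraries.

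Adding both copies to Rps18 removed the split. The sum was 116 to 136 CPM over all 12 libraries, and 4 of its 6 highest values came from libraries in which the copies were high. The CV was 24.6% for Rps18 alone and 4.72% for the sum. The share of the 2 copies was 38.1% (95% Wilson interval 36.3 to 39.99) to 40.03% (38.0 to 42.0) in the high libraries and 0.659% (0.393 to 1.103) to 1.19% (0.834 to 1.69) in the others. Gm10260 lies within a long noncoding RNA gene on the opposite strand, Gm26619 (chr13:97751112-97760965), which stood at 0 to 0.176 CPM in the 12 libraries. Gm26619 had 0 to 3 counts per library, whereas Gm10260 had 601 to 707 counts in each of its 6 high libraries. No source used here says whether the counting used strand.

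Rps18-ps3, on chromosome 8, is 99.3% identical to Rps18, as is Gm11361, and was chosen after its values were seen. It had 2 to 5 counts per library, 0.117 to 0.288 CPM, too few to show whether it followed the split. Gm15696, a copy with 33 differences that was also chosen after its values were seen, ran from 0.344 to 1.02 CPM, with 5 of its 6 highest values in the high libraries.

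Rps2 (ENSMUSG00000044533, chr17:24718116-24721929, plus strand) stood at 99.8, 130 and 121 CPM in APP/PS1 males, 85.4, 144 and 87.1 CPM in APP/PS1 females, 98.5, 79.9 and 123 CPM in APP/PS1/Hras-/- males and 133, 133 and 85.1 CPM in APP/PS1/Hras-/- females. Rps2-ps10 (ENSMUSG00000091957, chr18:61259008-61259972, minus strand) stood at 10.1, 0.0518 and 0 CPM, 8.92, 0 and 6.76 CPM, 10.5, 7.69 and 0.124 CPM, and 0.195, 0 and 8.04 CPM in the same order. The copy was annotated as a transcribed processed pseudogene and differs from the 879 coding bases of Rps2 at 5. Its 6 high libraries were again those with the lowest Rps2, 79.9 to 99.8 CPM against 121 to 144 CPM.

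Rps2-ps10 made up 7.20% (95% Wilson interval 6.13 to 8.45) to 9.67% (8.41 to 11.1) of parent plus copy counts in the high libraries, and 0 to 0.146% (0.0495 to 0.427) in the others. In 3 libraries it had no count. An upper limit of 3 counts, which is not a Wilson interval, allows shares of up to 0.120%, 0.161% and 0.170% there. The addition of Rps2-ps10 lowered the CV from 21.0% to 16.7%, and that of every annotated copy to 15.2%. With either sum, the same 6 libraries remained the lowest. The further copies Rps2-ps13 and Gm6311 had means under 1 CPM, and Rps2-ps13 was chosen after its values were seen. Rps2-ps13 (chromosome X) stood at 0.591 to 1.07 CPM in the 6 high libraries and at 0 to 0.311 CPM in the others. Gm6311 (chromosome 13) stood at 0.937 to 1.28 CPM and 0.0518 to 0.324 CPM. Gm5786, also chosen after its values were seen, did not follow the split: it ran from 0.388 to 1.01 CPM, with 4 of its 6 highest values in the high libraries.

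Glo1 (ENSMUSG00000024026, chr17:30584936-30626871, minus strand) ran the other way. It stood at 113, 65.3 and 67.0 CPM in APP/PS1 males, 100.3, 71.7 and 93.5 CPM in APP/PS1 females, 99.1, 96.1 and 62.3 CPM in APP/PS1/Hras-/- males and 63.4, 71.8 and 95.7 CPM in APP/PS1/Hras-/- females. Gm13443 (ENSMUSG00000075391, chr2:35340409-35340963, plus strand) stood at 6.54, 0.207 and 0.206 CPM, 10.1, 0 and 8.04 CPM, 7.50, 8.60 and 0.311 CPM, and 0.130, 0 and 7.82 CPM in the same order. Parent and copy were thus both high in the same 6 libraries, with Glo1 at 93.5 to 113 CPM there and at 62.3 to 71.8 CPM in the others.

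The share of Gm13443 was 5.45% (95% Wilson interval 4.54 to 6.53) to 9.14% (7.998 to 10.4) in the high libraries and at most 0.497% (0.212 to 1.16) in the others. In the 2 libraries without a count, an upper limit of 3 counts, which is not a Wilson interval, allows shares of up to 0.241% and 0.298%. Since both moved in the same direction, the sum varied more than the parent, with a CV of 25.05% against 21.6% for Glo1. Btbd9, the nearest tested gene before Glo1 at a distance of 8448 bases, was also highest in the same 6 libraries, at 107 to 126 CPM against 92.4 to 106 CPM, ranges that nearly touch.

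Rnps1 (ENSMUSG00000034681, chr17:24414565-24425901, plus strand) stood at 83.0, 103 and 101 CPM in APP/PS1 males, 72.3, 92.2 and 68.3 CPM in APP/PS1 females, 72.5, 68.0 and 101 CPM in APP/PS1/Hras-/- males and 103, 103 and 80.5 CPM in APP/PS1/Hras-/- females. Its copy Gm9825 (ENSMUSG00000096403, chr6:7982541-7983383, minus strand) stood at 12.3 to 16.8 CPM in the 6 high libraries and at 0.124 to 0.324 CPM in the others. Rnps1 was lowest in those 6, at 68.0 to 83.0 CPM against 92.2 to 103 CPM. The sum ran from 80.4 to 103 CPM, its CV was 9.29% against 16.7% for Rnps1 alone, and 1 of its 6 highest values came from a library with high Gm9825. The share of Gm9825 was 15.3 to 16.8% in the high libraries and 0.124 to 0.315% in the others.

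**Figure D3:**
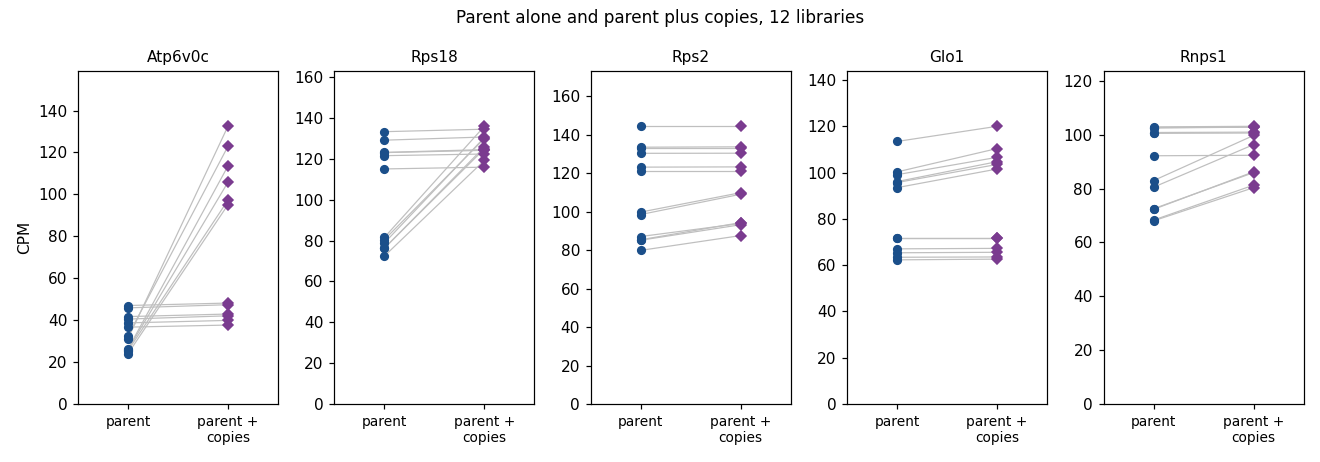
CPM of each parent alone (blue circles) and of parent plus copies (purple diamonds; the listed copies, or Gm9825 for Rnps1), a line joining both values of a library; 12 libraries per panel, linear y axes from 0. Rps18 closes from 72.4 to 133 CPM into 116 to 136 CPM, whereas the sums of Atp6v0c and Glo1 stay in 2 separate ranges.

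The spread between mice of the same genotype and sex placed the copies at the upper end of all genes. The SD of log2 CPM within groups was 3.64 for Gm10260, 3.46 for Atp6v0c-ps2, 3.35 for Rps2-ps10, 3.28 for Gm9825, 3.01 for Gm13443 and 2.504 for Gm11361, ranks 1, 2, 3, 4, 6 and 9 from the largest of 17307 genes. The parents had SDs of 0.23 (Rnps1) to 0.39 (Rps18), with ranks 7010 to 3409, against a median of 0.19 over all genes tested. The genes were chosen on this variation, so the ranks are a description of their size.

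**Figure D4:**
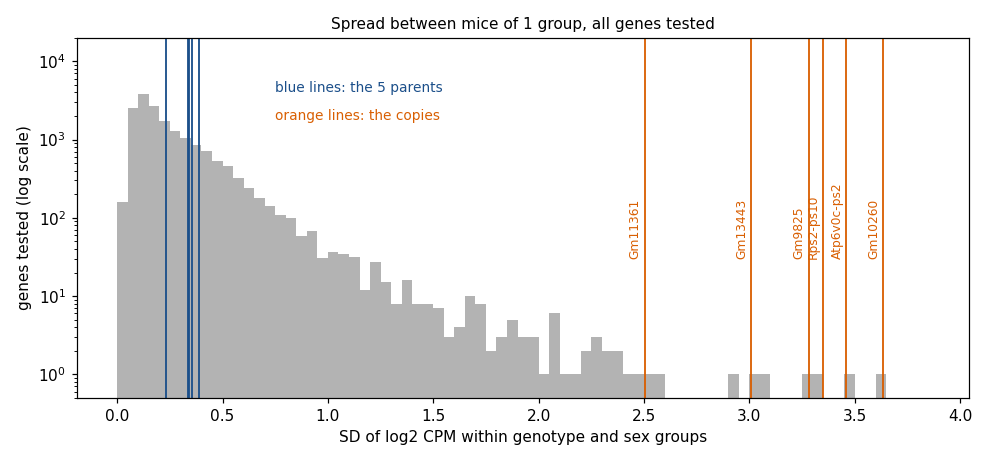
Number of genes tested (y axis, log scale) by the SD of log2 CPM within the 4 genotype and sex groups (x axis); blue lines mark the 5 parents and orange lines the 5 listed copies and Gm9825. The copies lie between 2.504 and 3.64, the parents between 0.23 and 0.39.

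The nearest tested genes on either side of the 5 parents mostly did not separate the 2 sets of libraries completely. Several had 5, or only 1, of their 6 highest values in the high libraries. Of 10 such neighbours, Btbd9 alone had its 6 highest values in the same 6 libraries, and none had its 6 lowest values there. The share of all genes tested that did either is not given here, so the count cannot be set against it. Amdhd2, 100 bases before Atp6v0c, ran from 13.7 to 19.5 CPM, with 2 of its 6 highest values in the high libraries. Tbc1d24, after Atp6v0c, ran from 124 to 148 CPM with 3 of them. The neighbours of Rps2 were Tbl3 (26.9 to 35.6 CPM, 2 of 6) and Ndufb10, a complex I subunit gene 131 bases away (66.3 to 87.5 CPM, 1 of 6).

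The other neighbours were less abundant or less clear. B3galt4, 511 bases before Rps18, ran from 2.74 to 4.79 CPM with 2 of its 6 highest values in the high libraries, and H2-K2 on the other side from 0.469 to 3.20 CPM with 1. D330041H03Rik (1.75 to 3.87 CPM) and Eci1 (8.39 to 11.2 CPM), on either side of Rnps1, and Umodl1 (0.104 to 0.703 CPM), beyond Glo1, each had 5. These levels therefore overlapped between the 2 sets of libraries.

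The genes whose log2 CPM followed the log2 ratio of copy to parent most closely were nearly the same for all 4 parents with a listed copy. Members and annotated copies of the same parent were left out of this ranking. The libraries form 2 separate sets, so these correlations over 12 libraries describe that split and no p is given. For Rps18, Pearson's r was 0.994 with Gm9825, 0.986 with Hmga1b, 0.966 with Prss41, 0.954 with Gm6311 and −0.948 with Decr2. The same 5 genes were taken for Atp6v0c and Glo1. For Rps2, Gm6311 was left out as an annotated copy, and H2-Ea-ps (r = 0.920) was among the 5. Prss41, a serine protease gene, and Decr2, a peroxisomal fatty acid oxidation gene, lie on chromosome 17, as does H2-Ea-ps, an MHC class II gene annotated as a polymorphic pseudogene.

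Prss41 stood at 1.58 to 2.32 CPM in the 6 high libraries and 0.0576 to 0.413 CPM in the others, and Decr2 at 25.3 to 28.5 CPM in the high libraries and 33.3 to 37.7 CPM in the others. H2-Ea-ps had no counts in the 6 libraries with few copy counts and stood at 0.166 to 1.04 CPM in the high ones. Hmga1b, a protein-coding gene on chromosome 11, stood at 11.7 to 15.9 CPM in the high libraries and 3.51 to 4.88 CPM in the others. Its aligned coding sequence of 321 bases is identical to that of Hmga1 on chromosome 17, a pair compared after its values were seen. Hmga1, which encodes a chromatin protein that binds AT-rich DNA, ran from 17.03 to 30.4 CPM, with 1 of its 6 highest values in the high libraries.

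Whether Hras genotype altered any of these genes was tested over all 17307 genes with edgeR's quasi-likelihood test, with sex as a covariate and Benjamini-Hochberg adjustment. None of the 10 members passed an adjusted p of 0.05, and none had an unadjusted p under 0.05, where 0.0173% of all genes tested passed (3 genes, with 291 at an unadjusted p under 0.05 and 7 called by DESeq2). All 10 had passed the filter on low counts. Rps2-ps10 and Gm13443 had at most 3 and 5 counts in the 6 other libraries, so they passed it through the libraries in which they were high. Gm10260 had 2 to 16 counts in those other libraries and also passed through its high ones. The lowest adjusted p among the members was 0.9999.

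The parents were close between genotypes. In APP/PS1 and then APP/PS1/Hras-/- libraries (means ± SD, n = 6 each), Atp6v0c stood at 35.3 ± 8.63 and 34.0 ± 8.56 CPM, Rps18 at 102 ± 24.96 and 99.8 ± 27.0 CPM, Rps2 at 111 ± 24.3 and 109 ± 24.1 CPM, Glo1 at 85.2 ± 20.0 and 81.4 ± 17.4 CPM, and Rnps1 at 86.6 ± 14.5 and 87.9 ± 16.0 CPM. The log2 differences, APP/PS1/Hras-/- minus APP/PS1, were −0.06 (SE 0.20) for Atp6v0c, −0.03 (SE 0.21) for Rps18, −0.04 (SE 0.18) for Rps2, −0.07 (SE 0.18) for Glo1 and 0.02 (SE 0.14) for Rnps1. Each was smaller than its SE. For the copies the SEs ran from 1.17 for Gm11361 to 1.44 for Atp6v0c-ps2, so the fit could not resolve even large differences between genotypes in them. The high libraries number 3 in each genotype, and that balance largely fixes the p-values of the copies. The p-values set each difference against the spread between these 12 mice. In bulk tissue, fewer cells of a type and less RNA per cell cannot be told apart.

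By sex, 0 of 10 members passed in the same test, with none at an unadjusted p under 0.05 and a lowest adjusted p of 0.997, where 0.0693% of all genes passed (12 genes, with 804 at an unadjusted p under 0.05 and 27 called by DESeq2). The high libraries number 3 in each sex, and that balance largely fixes the p-values of the copies by sex as well. The difference of the genotype effect between sexes was tested in a model of the 4 group means. There, 0 of 10 members passed, as did 0% of all genes (edgeR 0 and DESeq2 0, with 1248 at an unadjusted p under 0.05). The member at an unadjusted p under 0.05 was Rnps1, with a log2 difference of 0.55 (SE 0.23, adjusted p = 0.667 by edgeR). The median log2 difference over the 10 members was −0.79, against −0.007 over all genes. The high libraries number 1 of 3 in APP/PS1 males, 2 of 3 in APP/PS1 females, 2 of 3 in APP/PS1/Hras-/- males and 1 of 3 in APP/PS1/Hras-/- females. The listed copies were highest and Rnps1 was lowest in exactly these libraries, and their part in these differences was not tested.

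Copy shares gave a single value per library that could be compared by genotype and by sex with two-sided exact permutation tests. In APP/PS1 and then APP/PS1/Hras-/- libraries (means ± SD, n = 6 each), the share of Atp6v0c-ps2 was 38.8 ± 38.9% and 39.4 ± 40.2%. For the Rps18 copies it was 20.1 ± 20.9% and 20.0 ± 21.0%, for Rps2-ps10 4.32 ± 4.78% and 4.55 ± 4.91%, and for Gm13443 3.86 ± 4.17% and 3.92 ± 4.06%. Over the 8 tests, 4 by genotype and 4 by sex, the exact permutation p ran from 0.658 to 0.959 and was 0.959 for every test after Benjamini-Hochberg adjustment. The shares took 2 separate ranges, with 3 high libraries in each genotype and in each sex, and that balance largely fixes these p-values, so the tests add little to it. The smallest p that 6 against 6 libraries allow is 0.0022.

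**Figure D5:**
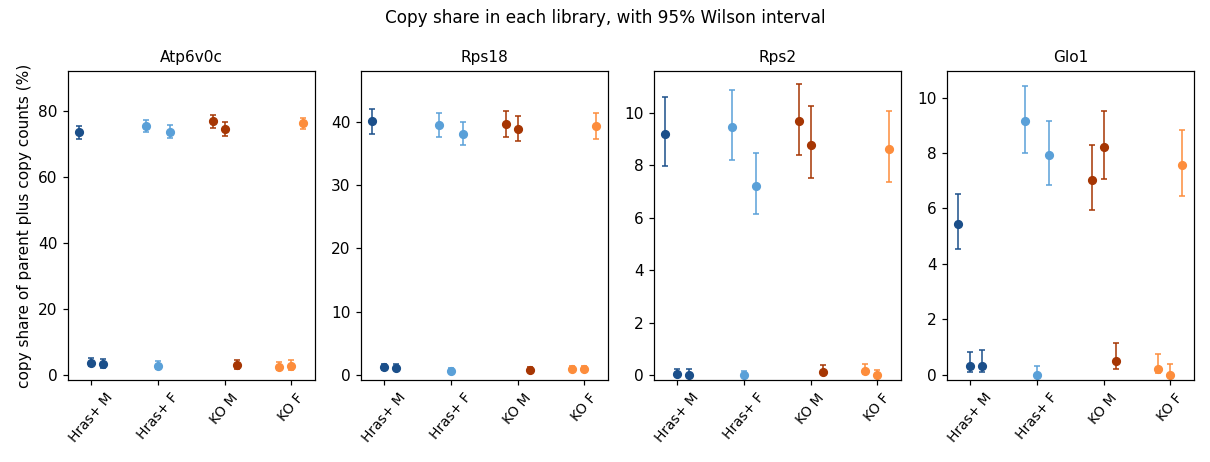
Share of the listed copies in the counts of parent plus copies (y axis, percent) in each library, by genotype and sex (x axis; M male, F female, Hras+ for APP/PS1, KO for APP/PS1/Hras-/-; points are mice, bars 95% Wilson intervals for counting error). Each of the 4 groups holds at least 1 library of either range, 73.6 to 76.9% and 2.43 to 3.69% in the panel of Atp6v0c.

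The sums of parent and listed copies do not depend on how counted reads were divided between them. They would still change with reads left out or counted at both places, and how such reads were treated is not given. Tested the same way in a table of 17302 rows, 0 of 4 sums passed by genotype or by sex, where 0.0173% of all rows passed by genotype and 0.0694% by sex. The log2 difference between genotypes was −0.04 for the sum of Rps18, and its SE was 0.051, against 0.211 for Rps18 alone. For Rps2 the SE was 0.138 for the sum and 0.176 for the parent, for Glo1 0.211 and 0.179, and for Atp6v0c 0.441 and 0.200. Summing thus narrowed the error for both ribosomal protein genes and widened it for Glo1 and Atp6v0c.

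The pathways of the parents were read from lists of their genes, the parents included. For comparison, 0.0173% of all genes tested passed by genotype. The share of all genes with a log2 difference above 0 is not given here. Of 25 V-ATPase subunit genes 20 were tested, and of these 0 passed in either direction by genotype, with 8 above 0. Their median log2 difference was −0.02 against 0.00 over all genes. Tcirg1 and Atp6v1a, the subunit genes with the smallest p, had log2 differences of −0.11 (SE 0.10) and 0.08 (SE 0.07). All 34 genes of 40S ribosomal proteins were tested, with 0 passing, 13 above 0 and a median of −0.01. Rps3a1 had a log2 difference of 0.34 (SE 0.27) and Rps3 of 0.06 (SE 0.06).

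Of 5 genes listed for the glyoxalase pathway, which include Park7 (−0.04, SE 0.06 on the log2 scale) and Ldhd (−0.06, SE 0.11), 0 passed, 1 was above 0 and the median was −0.06. Of 15 genes of the exon junction complex and peripheral splicing factors, 0 passed and 13 were above 0. The median was 0.03, against 0.00 over all genes. The smallest p in that list belonged to the exon junction core genes Rbm8a (0.21, SE 0.10) and Magoh (0.17, SE 0.10), both with an adjusted p of 0.9999 by edgeR. No gene of these 4 lists passed by sex or for the difference between sexes.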

How the data were processed

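Poly(A) RNA was sequenced from the frontal cortex of 12 mice. The authors deposited raw read counts per gene and library, in 1 table for the series. Per the submitters' processing notes, the tools were HISAT2 2.1.0 and featureCounts, with Trimmomatic 0.33 and FastQC 0.11.7. The library kit was TruSeq Stranded mRNA, per the labels' protocols. The builds mm10 and mm9 are named without a role. For the strand setting of the counting and for reads that fit several places, the treatment is not given in the sources used here. Identifiers were matched to GENCODE M21 (GRCm38), where 37 of 54532 had no match (0.0099% of counts).

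CPM used TMM-scaled library totals. Genes kept by filterByExpr over the 4 groups (17307) were tested in R 4.3.3 with edgeR 4.0.16 (quasi-likelihood F test, robust), at a Benjamini-Hochberg adjusted p of 0.05. SEs were derived from the F statistic. Correlations used log2 CPM with a prior count of 2. The edgeR test was checked on simulated data. Copies were found with blastn 2.17.0, using all annotated pseudogenes and the APPRIS principal coding sequence of each parent. Replicate numbers follow the order of deposit and pair no mice, and no label names a batch. Every pair of libraries differed at 23664 genes or more, so none was deposited in duplicate.

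The members and gene lists were chosen with earlier results of these data known. Named genes were the 10 members, Hras, other copies with a mean of at least 1 CPM, the nearest tested neighbours, the 5 genes most alike per parent, and the list genes with the 2 smallest p-values where none passed. Genes outside this rule are marked as such. Alternatives were RLE scaling, no filter, DESeq2 1.42.0, RIN as a covariate, sums and shares over every annotated copy, and each library left out in turn. The summed markers of 1 further cell type are not reported here.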

Additional observations from a re-analysis of the deposited data

How the results depend on the processing

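No member passed under any alternative run. No sum of parent and copies passed with RLE scaling, with every annotated copy added or without each library in turn. The sums were not run without a filter, with DESeq2 or with RIN as a covariate. Genes called by genotype numbered 5 without a filter on low counts and 7 with DESeq2, against 3. Those by sex numbered 27 with DESeq2, against 12. Without each library in turn they numbered 3 to 4 by genotype, 9 to 20 by sex and 0 for the interaction, likewise 3 to 4 and 9 to 20 in the table with sums. The 20 came without APP/PS1/Hras-/- male 2. With RIN as a covariate the log2 difference by genotype changed sign for Atp6v0c (0.018), Gm10260 (0.0077), Gm13443 (−0.081) and Rps2-ps10 (0.10), as did the share difference of Rps18 with every annotated copy (0.064 percentage points).

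Without each library in turn the log2 difference by genotype ran from −0.17 to 0.046 for Atp6v0c, −0.95 to 1.11 for Atp6v0c-ps2, −0.14 to 0.051 for Glo1, −0.84 to 0.72 for Gm10260, −0.69 to 0.56 for Gm11361, −0.57 to 0.52 for Gm13443, −0.043 to 0.11 for Rnps1, −0.13 to 0.050 for Rps18, −0.12 to 0.068 for Rps2 and −0.70 to 0.86 for Rps2-ps10. By sex it ran from −0.40 to 0.68 for Gm13443 and −0.93 to 0.63 for Rps2-ps10. For sums by genotype it ran from −0.27 to 0.29 (Atp6v0c), −0.16 to 0.063 (Glo1), −0.093 to 0.054 (Rps2) and −0.065 to −0.016 (Rps18), the last without a change of sign. Share differences by genotype ran from −6.92 to 7.98 percentage points (Atp6v0c), −3.95 to 3.95 (Rps18), −0.785 to 1.27 (Rps2) and −0.796 to 1.119 (Glo1), and by sex from −7.75 to 7.31, −4.29 to 3.57, −1.44 to 0.616 and −0.501 to 1.41. The high libraries number 3 in each genotype and in each sex, and leaving out any 1 library ended that balance. Its part in these ranges was not tested.

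No paired analysis was possible because the labels give no replicate numbers. Near-identical sequences limit the precision of parent and copy counts beyond depth: the table does not show how reads fitting both were assigned. DESeq2 gave no adjusted p for 2 members in the interaction. With 6 mice per genotype the SE for the copies exceeded 1 on the log2 scale, so even large differences in them could not be resolved.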
